A study of Mus musculus with 2 samples.

Results

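In the cerebral cortex of mice aged 10 days, 895 sites of open chromatin marked the starts of long noncoding RNA (lncRNA) genes away from any protein-coding start. They were taken from 50856 shared peaks, that is, regions of clustered DNase I cuts in replicate 1 that overlapped such a region in replicate 2 by at least 1 base. A shared peak counted as an lncRNA promoter peak when its midpoint lay within 500 bp of an annotated start of a gene of type lincRNA, antisense, sense_intronic, bidirectional_promoter_lncRNA or processed_transcript (GENCODE M21). It also had to lie more than 1 kb from every protein-coding start. The choice rested on position and on presence in the smaller of 2 peak lists of each library. It read no signal value, but presence in both libraries is tied to signal. The 139 such peaks of replicate 1 not found in replicate 2 had a median signal of 0.567, against 1.03 for those found. The lncRNA promoter peaks were set against 14896 coding promoter peaks, with their midpoint within 500 bp of a protein-coding start. They were also set against 31956 distal peaks, over 1 kb from the start of any annotated gene.

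DNase-seq, which reads where the enzyme DNase I cuts accessible DNA in nuclei, was performed on the cerebral cortex of the left side from 2 B6CASTF1/J mice, both female and aged 10 days. These animals are the F1 hybrid of the C57BL/6J and CAST/EiJ strains. The 2 libraries, numbered as biological replicates 1 and 2, formed 1 group, so the study holds no contrast of conditions, and the spread between libraries joins animal and technical variation. The labels give both libraries 1 donor identifier, that of the strain, while naming 2 animals.

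Several properties limit what these libraries show. Reads were not assigned to parental alleles, so at imprinted and X-linked genes the 2 gene copies were read together. The tissue was taken whole, and fewer cells of a type and less accessibility per cell cannot be told apart. DNase-seq does not measure RNA: a peak is open chromatin, not a transcript. In a check of tissue identity, 4 of 8 cortical genes (Neurod6, Neurod2, Snap25 and Syt1) had a shared promoter peak and 4 did not (Tbr1, Bcl11b, Gad1 and Slc17a7), against 0 of 7 genes of other tissues, among them Alb and Ins2. Replicate 1 had 60071 peaks and 212785 footprints, and replicate 2 had 70563 peaks and 224029 footprints. A footprint is a short stretch protected from cutting within a peak. The files state no read depth, so the deposited signal is the only measure of how firmly a peak was seen. Signal was deposited in steps of 0.00692 in replicate 1 and 0.00758 in replicate 2, and the median lncRNA promoter peak stood at 149 and 180 steps.

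Long noncoding RNAs are transcribed by RNA polymerase II from promoters of their own, mostly capped and spliced, but not translated into protein. Some work in the nucleus, where they silence neighbouring genes, as Xist and Kcnq1ot1 do, or build nuclear bodies, as Neat1 does. Others host small nucleolar RNAs or microRNAs in their introns and exons, and many have no known role. Their promoters bind general promoter factors as coding promoters do, and some lie in enhancers.

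The following 9 peaks carry the results below: the 3 highest lncRNA promoter peaks by mean signal, then the highest of each of 6 role groups that had a peak (nuclear body, imprinted, X chromosome, small RNA host, neural, and cytoplasmic or decay). Each is the whole peak of replicate 1, read from the RefSeq copy of GRCm38.p6 (mm10) in the direction of its lncRNA gene. Capitals mark the bases that lie in a footprint in both libraries. Gm42418 lies at chr17:39846781-39846920, plus strand. 2900052L18Rik lies at chr11:120231541-120231740, minus strand, and 1700113A16Rik at chr3:88178021-88178240, minus strand. Malat1 lies at chr19:5802581-5802820, minus strand. Kcnq1ot1 lies at chr7:143296561-143296780, minus strand, in a body of a coding gene on the opposite strand. Ftx lies at chrX:103622381-103622660, minus strand, and Snhg8 at chr3:123508321-123508480, minus strand. 1700020I14Rik lies at chr2:119594121-119594340, plus strand, and Dancr at chr5:74092861-74093060, plus strand.
Gm42418: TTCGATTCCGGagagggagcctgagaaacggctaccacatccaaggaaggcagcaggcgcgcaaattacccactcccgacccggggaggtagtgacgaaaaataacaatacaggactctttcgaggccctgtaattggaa
2900052L18Rik: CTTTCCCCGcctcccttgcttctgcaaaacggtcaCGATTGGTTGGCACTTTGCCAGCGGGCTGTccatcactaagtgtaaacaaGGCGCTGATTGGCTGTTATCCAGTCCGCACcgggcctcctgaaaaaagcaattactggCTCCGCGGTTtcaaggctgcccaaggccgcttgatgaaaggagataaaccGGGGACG
1700113A16Rik: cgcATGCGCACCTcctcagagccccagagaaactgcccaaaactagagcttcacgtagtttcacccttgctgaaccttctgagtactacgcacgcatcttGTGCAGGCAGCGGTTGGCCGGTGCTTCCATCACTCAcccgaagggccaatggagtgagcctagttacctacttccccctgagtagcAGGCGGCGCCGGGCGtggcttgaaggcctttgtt
Malat1: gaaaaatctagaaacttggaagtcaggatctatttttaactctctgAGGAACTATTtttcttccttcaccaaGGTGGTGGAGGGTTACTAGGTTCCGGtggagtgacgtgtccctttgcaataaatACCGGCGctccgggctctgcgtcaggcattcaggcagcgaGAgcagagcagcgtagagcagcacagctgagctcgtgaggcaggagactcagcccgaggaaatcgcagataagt
Kcnq1ot1: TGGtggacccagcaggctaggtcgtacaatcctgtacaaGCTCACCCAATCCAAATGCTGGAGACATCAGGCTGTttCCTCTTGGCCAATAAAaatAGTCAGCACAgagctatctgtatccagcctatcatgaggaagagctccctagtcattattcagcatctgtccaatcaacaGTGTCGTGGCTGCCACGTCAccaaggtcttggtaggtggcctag
Ftx: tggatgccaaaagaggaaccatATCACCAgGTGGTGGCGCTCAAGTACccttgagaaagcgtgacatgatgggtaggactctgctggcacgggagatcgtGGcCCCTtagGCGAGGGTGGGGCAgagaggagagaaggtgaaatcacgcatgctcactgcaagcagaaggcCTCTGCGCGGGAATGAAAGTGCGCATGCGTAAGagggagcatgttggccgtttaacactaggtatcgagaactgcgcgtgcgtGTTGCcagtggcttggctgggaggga
Snhg8: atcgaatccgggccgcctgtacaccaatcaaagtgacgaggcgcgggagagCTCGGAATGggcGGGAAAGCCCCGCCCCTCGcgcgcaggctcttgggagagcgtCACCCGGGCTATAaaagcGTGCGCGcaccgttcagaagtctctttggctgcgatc
1700020I14Rik: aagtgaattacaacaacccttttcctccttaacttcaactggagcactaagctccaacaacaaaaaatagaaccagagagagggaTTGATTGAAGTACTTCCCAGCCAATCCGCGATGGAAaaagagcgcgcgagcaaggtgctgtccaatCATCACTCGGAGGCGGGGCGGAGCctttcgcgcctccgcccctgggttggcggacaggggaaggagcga
Dancr: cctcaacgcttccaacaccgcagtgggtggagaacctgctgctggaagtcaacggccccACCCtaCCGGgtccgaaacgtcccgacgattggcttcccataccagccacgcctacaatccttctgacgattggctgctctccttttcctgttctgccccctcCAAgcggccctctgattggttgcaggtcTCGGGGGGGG

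The protected bases differed widely among these peaks. They made up 86 of the 200 bases of the 2900052L18Rik peak, 85 of 220 at Kcnq1ot1 and 83 of 280 at Ftx, but 21 of 200 at Dancr and 11 of 140 at Gm42418. In the 2900052L18Rik peak, both CCAAT boxes (read as CCAAT or its complement ATTGG) and a palindrome of the NFI family of factors lay wholly in capitals. In the Kcnq1ot1 peak, 2 of 3 CCAAT boxes lay in capitals. The Ftx peak held the NRF1 motif GCGCATGCG in capitals. In the Dancr peak, none of 3 CCAAT boxes lay in capitals, and the 1700020I14Rik peak had 1 of 2 CCAAT boxes and 1 of 2 GC boxes (GGGCGG) in capitals. A match is a description of the letters and does not show which factor was bound.

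Open lncRNA promoters were a small part of the annotated lncRNA genes. Of 10120 genes of the 5 types, 8369 had at least 1 start more than 1 kb from every protein-coding start, and 803 of these had an lncRNA promoter peak (9.59%, 95% Wilson interval 8.98 to 10.2). Without the 551 of chromosome Y, which female mice lack, it was 803 of 7818 genes (10.3%, 9.62 to 11.0), a value added after the data were seen. In the same libraries, 11953 of 21938 protein-coding genes had a shared promoter peak (54.5%, 53.8 to 55.1). The measures differ: any shared peak within 500 bp of a coding start counted there, while lncRNA peaks near coding starts were left out. In neither was the number of starts per gene accounted for. Among lncRNA types, the share was 19.96% of 541 processed_transcript genes (16.8 to 23.5), 9.39% of 5508 lincRNA genes (8.64 to 10.2) and 8.21% of 1998 antisense genes (7.08 to 9.49). It was 3.93% of 305 sense_intronic genes (2.26 to 6.75) and 2 of 17 bidirectional_promoter_lncRNA genes, a type whose members mostly start within 1 kb of a coding gene. All intervals here and below cover counting error only, not the spread between animals, and read from 1 library alone the share of genes was 11.9% in replicate 2 and 10.7% in replicate 1. By the type of the nearest lncRNA start, the 895 peaks divided into 560 at lincRNA genes, 183 at antisense, 136 at processed_transcript, 14 at sense_intronic and 2 at bidirectional_promoter_lncRNA genes.

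Most lncRNA genes with an open promoter had a single peak. Counting all genes within 500 bp, 810 genes were reached, of which 711 had 1 peak, 82 had 2, 14 had 3, 1 had 4 and 2 had 5. The most, 5 peaks each, were at Mir99ahg, a microRNA host gene on chromosome 16, and at 3110039I08Rik on chromosome 9. Gm3764 on chromosome 3 had 4. A further 36 peaks lay within 500 bp of the starts of 2 lncRNA genes, such as the peak near both Neat1 and Frmd8os. Peaks are not fully separate: 14 of the 895 overlapped another of them in the deposited list of replicate 1. A further measure of this kind is that 25 lay within 2 kb of another that had the same signal in replicate 2.

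The annotated gene type was set against a different annotation. RefSeq gave a type for the genes of 582 of the peaks, and 546 of these were at genes it also calls lncRNA. It called the gene protein-coding at 23 peaks, which belong to 18 genes, among them Tmem250-ps, Zswim6, Tctn2 and Trerf1. These 23 peaks had a median signal of 1.63 in replicate 1 and 2.27 in replicate 2, and 11 of them were CpG-rich. A type was not found for 313 peaks, whose medians were 0.920 and 1.16.

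lncRNA promoter peaks carried less signal than coding promoter peaks and more than distal peaks. Their median signal was 1.03 in replicate 1 and 1.36 in replicate 2, with quartiles of 0.671 to 1.72 and 0.872 to 2.34. Coding promoter peaks had medians of 1.71 in replicate 1 and 2.501 in replicate 2, and distal peaks had 0.803 and 0.985. On the log2 scale, the median of lncRNA promoter peaks minus that of coding promoter peaks was -0.80 ± 0.10 (SD, n = 2 libraries), with -0.73 in replicate 1 and -0.87 in replicate 2. Against distal peaks it was 0.42 ± 0.08, with 0.36 and 0.47. Both differences had the same sign in each library and were larger than the spread between libraries; no test was made, since an exact permutation test over 2 libraries cannot give a p below 0.5. The classes overlapped broadly, since 226 of the 895 (25.3%, 22.5 to 28.2) exceeded the coding median in replicate 1 and 199 (22.2%, 19.6 to 25.1) did so in replicate 2. The distal median was exceeded by 580 (64.8%, 61.6 to 67.9) in replicate 1 and by 596 (66.6%, 63.4 to 69.6) in replicate 2. Peak widths were alike, with medians of 200 bp for lncRNA promoter peaks, 220 bp for coding promoter peaks and 183 bp for distal peaks.

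**Figure D1:**
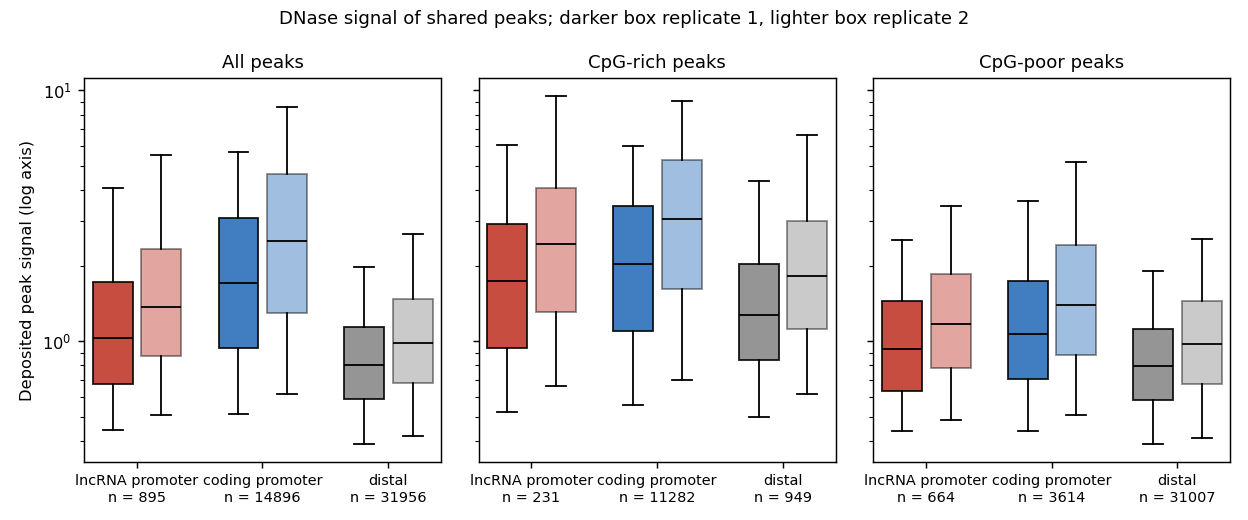
Deposited peak signal (log axis) of lncRNA promoter peaks, coding promoter peaks and distal peaks in replicate 1 (darker boxes) and replicate 2 (lighter boxes), for all peaks, CpG-rich peaks and CpG-poor peaks. Boxes span the quartiles with a line at the median, and whiskers reach from the 5th to the 95th percentile; the median of lncRNA promoter peaks, 1.03 in replicate 1, lies below that of coding promoter peaks, 1.71, and the classes come closer within each CpG panel.

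CpG content differed between the classes along with signal. CpG islands are stretches where CpG dinucleotides are kept unmethylated, and they mark the promoters of most broadly used genes. A peak was called CpG-rich when the 500 bp around its midpoint had a CpG observed over expected of at least 0.6 and a GC content of at least 50%. Of the lncRNA promoter peaks, 231 were CpG-rich (25.8%, 23.1 to 28.8), against 75.7% of coding promoter peaks (75.04 to 76.4), 2.97% of distal peaks and 26.4% of all shared peaks. The median ratio was 0.44 in lncRNA promoter peaks, 0.78 in coding promoter peaks and 0.25 in distal peaks. Among the lncRNA types, 42.6% of processed_transcript peaks (34.6 to 51.0), 23.5% of antisense peaks (17.9 to 30.1) and 22.9% of lincRNA peaks (19.6 to 26.5) were CpG-rich.

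**Figure D2:**
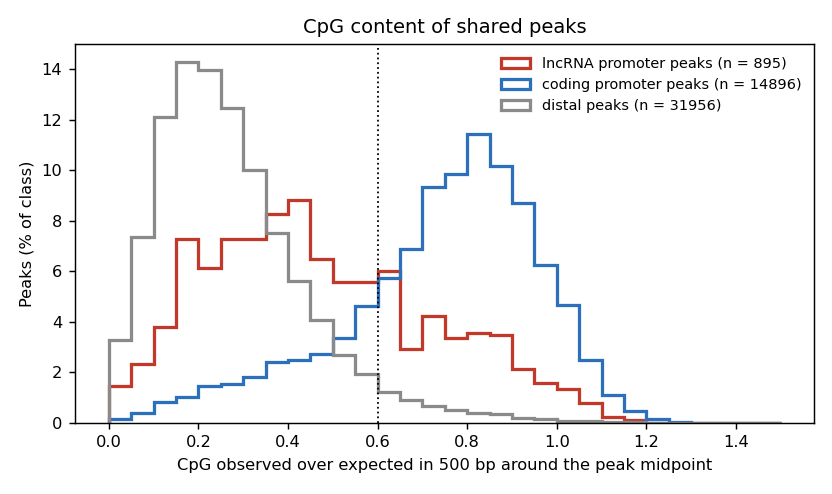
Share of peaks of each class (vertical axis, % of class) by the CpG observed over expected of the 500 bp around the peak midpoint (horizontal axis, no unit); the dotted line is the minimum of 0.6. lncRNA promoter peaks (median 0.44) lie between coding promoter peaks (0.78) and distal peaks (0.25), with values on both sides of the minimum.

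Within a CpG class, the signals of lncRNA and coding promoter peaks lay closer together. The 231 CpG-rich lncRNA promoter peaks had median signals of 1.73 in replicate 1 and 2.43 in replicate 2, against 2.03 and 3.06 at 11282 CpG-rich coding promoter peaks, a log2 difference of -0.28 ± 0.07 (SD, n = 2). The 664 CpG-poor lncRNA promoter peaks had 0.930 and 1.17, against 1.07 and 1.39 at 3614 CpG-poor coding promoter peaks, a difference of -0.22 ± 0.03. Both differences kept their sign in each library and were smaller than the -0.80 over all peaks. Against distal peaks the difference was 0.43 ± 0.02 among CpG-rich peaks and 0.25 ± 0.04 among CpG-poor ones. These comparisons within CpG classes were added after the data were seen. Across the 895 peaks, mean signal and CpG ratio had a Spearman correlation of 0.41, a description of peaks that share the same 2 libraries. Processed_transcript peaks, the type with the most CpG-rich peaks, also had the highest medians of the 3 larger types, 1.31 in replicate 1 and 1.79 in replicate 2, against 1.02 and 1.29 for lincRNA and 0.982 and 1.31 for antisense peaks.

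The strongest peak taken by the rule was that of Gm42418, with 19.7 in replicate 1 and 30.1 in replicate 2. Both its signal and its standing as an lncRNA promoter are uncertain. Its sequence has at least 1 other near-identical copy (99.3% identity), on a different chromosome, and RefSeq calls the gene a pseudogene. Only the assembled chromosomes were searched, so copies missing from the assembly would not be seen, and the signal may join reads of several copies. Next came 2900052L18Rik on chromosome 11 with 9.28 and 12.9, the strongest of the peaks without a near-identical copy. It was followed by 1700113A16Rik, an antisense gene on chromosome 3, with 8.66 and 11.9. The next 3 by mean signal were Gm12762 on chromosome 7 with 7.18 and 11.8, 1700028E10Rik on chromosome 5 with 6.68 and 12.1, and 6720427I07Rik on chromosome 13 with 6.03 and 12.7. None of these 3 genes has a role known well enough to state here. The highest 12 were completed by 1810026B05Rik (7.04 and 11.1), Tmem250-ps (6.70 and 11.4), 2810410L24Rik (6.21 and 11.2), Gm13421 (6.75 and 9.89), Gm10433 (6.46 and 10.2) and 1700096K18Rik (6.43 and 10.1). All 12 were CpG-rich and all 12 were higher in replicate 2. Among the rarer types, the highest sense_intronic peak was that of Peg13, with 1.98 and 3.10, and the highest bidirectional_promoter_lncRNA peak was that of Gm20501, with 2.03 and 2.88.

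A near-identical copy in the assembled chromosomes, with at least 95% identity over at least 90% of the peak, was found for 24 of the 895 peaks (2.68%). Without them the log2 difference from coding promoter peaks was -0.81. Reads from such copies cannot be placed with certainty, and the sources used here do not say how they were treated.

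Of 74 lncRNA genes with a described role, listed in 7 groups, 64 were annotated with 1 of the 5 types. Of these, 30 (46.9%) had an lncRNA promoter peak, against 9.59% of all eligible lncRNA genes and 10.3% of those outside chromosome Y. Unlike those shares, the 64 were not limited to eligible genes, and 6 had a shared peak left out for a coding start within 1 kb. The number of starts per gene was not accounted for. The list was drawn up with earlier results of these data known, so the share describes the list only. For 8 listed symbols, Oip5os1 among them, the annotation had no gene of that name. A gene listed again under another name would thus not be recognised. It could be counted more than once in the 74, and its group would rest on the name that was found. By group, the counts were 3 of 3 for nuclear bodies, 4 of 5 for the X chromosome, 5 of 9 imprinted, 10 of 17 small RNA hosts, 5 of 7 listed as cytoplasmic or decay, 3 of 15 neural and 0 of 8 for genes known from other tissues. Each gene stands in a single group though roles overlap, as for Dleu2, a microRNA host listed as cytoplasmic or decay. The group names are therefore loose.

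All 3 nuclear body genes had an lncRNA promoter peak by the rule, which reads positions in replicate 1. Malat1, whose RNA gathers in splicing speckles, had a peak of 4.44 in replicate 1 and 5.04 in replicate 2. A peak within 500 bp of the starts of Neat1, the scaffold RNA of paraspeckles, and of Frmd8os, which is nearer, had 2.82 and 3.30. It is 300 bp wide and CpG-rich, and in replicate 2 the midpoint of the overlapping peak was not within 500 bp of a Neat1 start. Miat, a nuclear RNA of neurons, had a pair of adjoining peaks in replicate 1 of 1.16 and 0.948, and both had 1.58 in replicate 2. The Malat1 peak was above both Miat peaks in each library.

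Of the X-linked genes, Ftx had the strongest promoter. Ftx, Jpx and Xist lie in the X inactivation centre, where Xist RNA coats the X chromosome to be silenced and Jpx and Ftx act on Xist, while Firre makes an RNA with roles in nuclear structure. The main Ftx peak had 5.22 in replicate 1 and 7.22 in replicate 2, and another Ftx peak had 2.35 and 3.60. Jpx had 1.43 and 2.11, Firre had 1.45 and 1.72, and Xist had 0.969 and 1.14. Jpx and Firre changed places between the libraries, so their order is not resolved, while Xist was lowest in both. Tsix, the antisense partner of Xist, had a stricter peak in replicate 2 alone (0.447), and its larger-list peak in replicate 1 had 0.249. Chromosome X held 24 of the 895 peaks, at 20 of its 147 eligible genes (13.6%), and none lay on chromosome Y. The 24 X-linked peaks had medians of 1.10 and 1.64, against 1.03 and 1.36 for 871 autosomal ones.

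Imprinted lncRNA genes, which are read from the copy of 1 parent, had open promoters at 5 of 9. Kcnq1ot1, which silences its neighbours in cis, led with 4.22 in replicate 1 and 5.66 in replicate 2. Nespas, the antisense RNA of the Gnas domain, had 2.23 and 3.30. Peg13, in an intron of Trappc9, had 1.98 and 3.10 at its main peak and 1.30 and 1.96 at another. Meg3 had 1.40 and 1.70, and Airn, which silences Igf2r, had 0.685 and 0.910. This order held in both libraries. Airn and Nespas start inside coding gene bodies of the opposite strand, and Peg13 inside 1 of the same strand. Rian, Mirg and H19 had no peak in any list, and Snhg14 had 0.227 in the stricter list of replicate 2 and 0.214 in the larger list of replicate 1.

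Small RNA host genes held the strongest peak of the list. Snhg8 had 6.04 in replicate 1 and 9.51 in replicate 2, Snhg15 had 4.59 and 7.42, and Snhg5 had 4.27 and 6.28. These genes host small nucleolar RNAs, which guide chemical changes of ribosomal RNA. They were followed by Snhg12 (2.88 and 3.74), Snhg6 (2.497 and 3.90), Snhg17 (2.28 and 2.88) and Snhg20 (1.43 and 1.81). Snhg12 and Snhg6 changed places between the libraries. All of these main peaks were CpG-rich; another Snhg12 peak, with 0.630 and 0.675, was CpG-poor and had a near-identical copy elsewhere. Among the microRNA hosts, the highest of 5 Mir99ahg peaks had 2.497 and 2.63. Mir124a-1hg, the host of a neuronal microRNA, had 1.18 and 2.27, and Mir9-3hg had 1.11 and 1.23. Another 4 hosts, Gas5, Snhg1, Snhg3 and Mir22hg, had a shared peak that the rule left out because a coding start lay within 1 kb. Their peaks had, for example, 8.20 and 12.9 at Mir22hg and 5.96 and 9.27 at Gas5.

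The neural group had the lowest share of genes with an lncRNA promoter peak by the rule, after the genes of other tissues. 1700020I14Rik, which the list places in this group and whose peak is printed above, had 4.80 in replicate 1 and 6.20 in replicate 2. Crnde, next to the homeobox gene Irx5, had 3.39 and 5.52, and C130071C03Rik, a microRNA host near the neuronal factor Mef2c, had 1.93 and 2.48. No peak was found in any list at 7 of the group, namely Pantr2, Dlx1as, Dlx6os1, Six3os1, Otx2os1, Lhx1os and 2610307P16Rik. Pantr1 had 1.18 and 1.28 and Sox2ot 0.374 and 0.553, in the larger lists only. Rmst had 0.478 in the stricter list of replicate 2 and 0.339 in the larger list of replicate 1. A330008L17Rik had a shared peak of 1.58 and 1.65, left out because a coding start lay within 1 kb. Of the 8 genes known from other tissues, such as Hotair, Hottip and Fendrr, none had a shared peak, and 1 had a larger-list peak in replicate 2.

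The genes listed as cytoplasmic or decay were led by Dancr, a repressor of differentiation, with 4.12 in replicate 1 and 5.81 in replicate 2. Dleu2, the host of a microRNA pair deleted in leukaemia, had 3 peaks, the highest with 3.66 and 4.75. Epb41l4aos had 1.60 and 1.90, and 2900097C17Rik, the mouse counterpart of NORAD, which binds Pumilio proteins, had 1.29 and 1.37. Pvt1, a neighbour of Myc, had 0.623 and 1.43, the widest gap between libraries in the list (log2 1.20). Tug1 had a shared peak of 4.25 and 6.47, left out because a coding start lay within 1 kb.

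**Figure D3:**
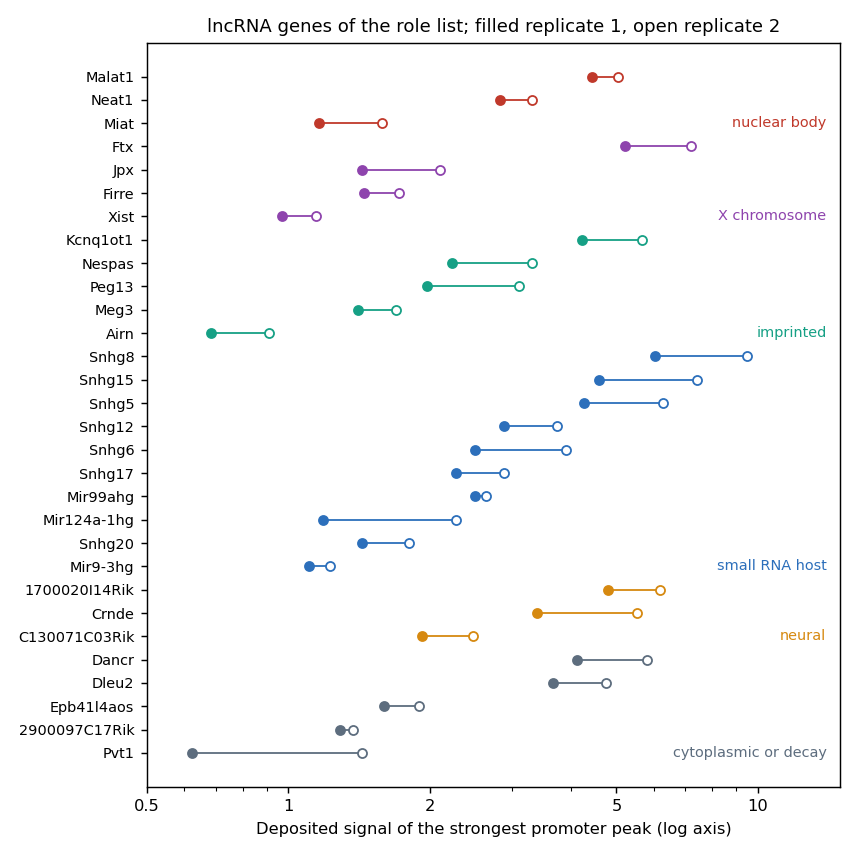
Signal (log axis) of the strongest lncRNA promoter peak of each of the 30 genes of the role list that had one, in replicate 1 (filled) and replicate 2 (open), coloured by role group. Snhg8 (6.04 and 9.51) is highest, Pvt1 (0.623 and 1.43) has the lowest value in replicate 1, and replicate 2 is higher at every gene shown; the Neat1 points are the peak that is nearer to Frmd8os.

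Within the 500 bp that the choice allowed, peaks of lncRNA promoters sat more loosely around the start than those of coding promoters. Both classes were chosen by this distance, so no midpoint could lie farther off, and the offsets describe that window only. The nearest of all annotated starts was used, and the number of starts per gene was not accounted for. The median midpoint lay 56 bp upstream of the start (offset -56 bp, quartiles -146 to 33), against 30 bp upstream (-30 bp, -84 to 9) at coding promoters. Upstream midpoints made up 69.1% of lncRNA promoter peaks (65.9 to 72.0) and 69.4% of coding promoter peaks (68.6 to 70.1). A midpoint within 100 bp of the start was found at 46.5% (43.2 to 49.8), against 65.96% (65.2 to 66.7), and within 250 bp at 74.1% (71.1 to 76.8), against 85.5% (84.9 to 86.1). The 416 lncRNA promoter peaks within 100 bp had medians of 1.17 in replicate 1 and 1.497 in replicate 2, and the 232 peaks over 250 bp away had 0.927 and 1.15. At the edge of the rule, 50 peaks at 450 to 500 bp had medians of 0.851 and 1.12, and 34 peaks at 500 to 550 bp, which the rule left out, had 1.11 and 1.44.

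**Figure D4:**
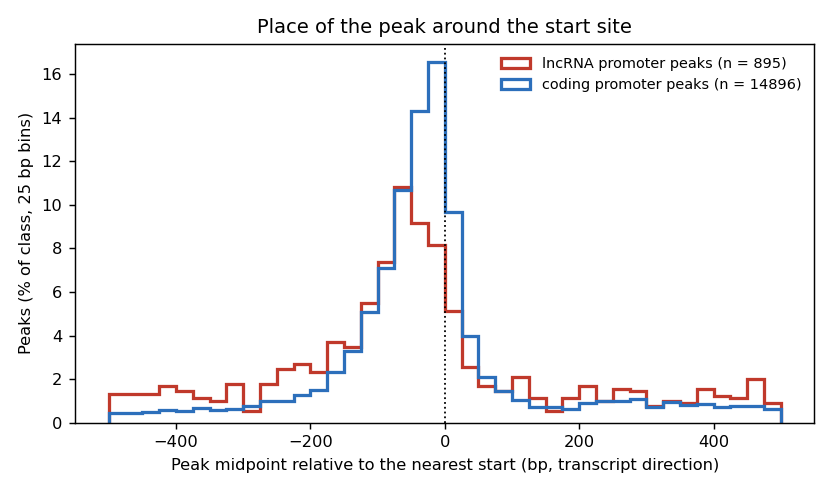
Share of peaks (vertical axis, % of class in bins of 25 bp) by the distance of the peak midpoint from the nearest start (horizontal axis, bp, negative upstream), for lncRNA promoter peaks and coding promoter peaks. Both classes are highest just upstream of the start, with 46.5% of lncRNA and 65.96% of coding promoter peaks within 100 bp. Both were chosen by a midpoint within 500 bp of a start, so none lie beyond it.

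By the rule, no lncRNA promoter peak lay within 1 kb of a coding start; the median distance was 32448 bp. It was over 1 and up to 5 kb at 145 peaks, up to 20 kb at 187, up to 100 kb at 350 and over 100 kb at 213. A coding gene body held 173 of the peaks (19.3%, 16.9 to 22.0). Of these, 148 lay in a body of the opposite strand, 22 of the same strand and 3 in bodies of both strands. Antisense peaks lay in such bodies at 114 of 183, against 21 of 560 for lincRNA peaks, as the gene types are defined. Peaks outside coding bodies, 722 in number, had medians of 1.04 and 1.37, and the 148 of the opposite strand had 1.02 and 1.32, a small gap beside the quartiles. Repeat sequence, soft-masked in the reference, made up 7.44% of the bases of lncRNA promoter peaks, against 5.39% in coding promoter peaks and 7.95% in distal peaks. It was absent from 468 of the 895, and 9 were more than 50% repeat.

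Most lncRNA promoter peaks held footprints, in a share close to that of coding promoter peaks. At least 1 footprint was found in 829 (92.6%, 90.7 to 94.2) in replicate 1 and in 819 (91.5%, 89.5 to 93.2) in replicate 2. A footprint that overlapped between the libraries was present in 704 (78.7%, 75.9 to 81.2), against 80.5% of coding promoter peaks (79.9 to 81.1) and 76.0% of distal peaks. The intervals of lncRNA and coding promoter peaks overlap, so the difference is not resolved at this number of peaks. Of the 895, 191 had none, 286 had 1, 222 had 2, 103 had 3, and 93 had 4 or more. The most were the 9 of 5930403N24Rik, a 640 bp wide peak near the coding gene Marcks, the 8 of 1700028E10Rik and the 6 of 6720427I07Rik and others. Per 100 bp, lncRNA promoter peaks had 0.759 shared footprints and coding promoter peaks 0.970. Signal moved with this count: peaks with a shared footprint had medians of 1.26 and 1.65, those without 0.609 and 0.720, and Spearman's rho across peaks was 0.67. The part of signal in the footprint counts was not tested.

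Several motifs of general promoter factors were rarer in lncRNA than in coding promoter peaks, and several motifs frequent at distal peaks were more common. Both strands were searched for 20 motifs in the 200 bp around each midpoint, and none of the motifs spelled out here contains another. The GC box GGGCGG, bound by SP and KLF factors, was found in 22.5% of lncRNA promoter peaks (19.8 to 25.3), 56.2% of coding promoter peaks, 7.57% of distal peaks and 23.2% of all shared peaks. The ETS motif CCGGAAG was found in 4.92% (3.68 to 6.54), against 13.96%, 1.32% and 5.16% in the same order of classes. NRF1 (GCGCATGCG) had 1.45%, against 3.30%, 0.325% and 1.23%. YY1 (AAGATGGCG) had 0.447%, against 2.44%, 0.363% and 0.971%, and EGR (CGCCCACGC) had 0.223%, against 1.03%, 0.166% and 0.444%. The CRE (TGACGTCA) had 2.46% (1.63 to 3.69), against 3.30%, 0.444% and 1.34%, and its interval spans the coding value. The CCAAT box had 28.2% (25.3 to 31.2), against 31.0%, 24.6% and 26.6%, near the share in each other class.

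Motifs more frequent than in coding promoter peaks included CTCF, the factor of chromatin loop ends, at 5.81% (4.46 to 7.54), against 1.48% of coding promoter, 10.8% of distal and 7.68% of all shared peaks. The E-box CAGATGG, bound by neuronal bHLH factors such as Neurod2, had 8.16% (6.54 to 10.1), against 2.81%, 13.5% and 9.90%. The E-box CAGCTG had 17.9%, against 11.5%, 19.2% and 16.7%. AP-1 (TGANTCA) had 7.49% (5.94 to 9.40), against 2.65%, 7.74% and 6.05%, and the TATA box TATAAA had 6.48% (5.05 to 8.29), against 2.60%, 8.90% and 6.80%. The homeobox core TAATTA had 2.57%, against 0.826%, 4.43% and 3.20%, and RFX, by its palindrome, 3.46%, against 2.15%, 2.76% and 2.51%. The NFI palindrome had 1.12%, against 0.363%, 1.13% and 0.901%. The rest had few matches. The TBX motif AGGTGTGA was at 8 lncRNA promoter peaks (0.894%, 0.454 to 1.75), against 0.262%, 0.657% and 0.541%. MEF2 (CTAAAAATA) was at 7 (0.782%, 0.379 to 1.61), against 0.175%, 0.976% and 0.710%. For TBX and MEF2 the intervals of lncRNA and coding promoter peaks lay apart. The POU octamer ATTTGCAT was at 14 (1.56%, against 1.05%, 1.92% and 1.61%). The SOX motif ACAATGG was at 18 (2.01%, against 1.22%, 2.07% and 1.81%) and REST at 1 (0.112%, against 0.128%, 0.0595% and 0.0846%).

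Within a CpG class, the intervals of lncRNA and coding promoter peaks lay apart for few motifs, and overlapping intervals do not show equal shares. Among CpG-rich peaks the intervals of lncRNA and coding promoter peaks lay apart for 5 of the 20 motifs, and among CpG-poor peaks for 5 of 20; these comparisons were added after the data were seen. Among CpG-rich peaks, the GC box was found in 55.0% of lncRNA (48.5 to 61.3) and 64.6% of coding promoter peaks (63.7 to 65.5), and ETS in 9.52% (6.37 to 13.998) and 16.8% (16.1 to 17.5). The TATA box, MEF2 and CTCF were the 3 with a higher share at CpG-rich lncRNA promoter peaks, CTCF with 2.16% (0.928 to 4.97) and 0.727% (0.586 to 0.901). MEF2 was found at only 3 of the 231 CpG-rich lncRNA promoter peaks. Among CpG-poor peaks, the GC box was found in 11.1% of lncRNA (8.97 to 13.8) and 29.9% of coding promoter peaks (28.4 to 31.4), and CTCF in 7.08% (5.36 to 9.29) and 3.85% (3.27 to 4.52). AP-1 had 9.19% of CpG-poor lncRNA (7.22 to 11.6) and 4.62% of CpG-poor coding promoter peaks (3.98 to 5.35), and the TATA box and the E-box CAGATGG were also higher there. The intervals overlapped for 15 motifs in each class, among them ETS in CpG-poor peaks, AP-1 in CpG-rich peaks and NRF1 and RFX in both. They barely met for the E-box CAGCTG in CpG-poor peaks, 20.8% of lncRNA (17.87 to 24.0) and 16.6% of coding promoter peaks (15.5 to 17.88). The CRE share at CpG-rich peaks was on the other side, 5.19% of lncRNA and 3.70% of coding promoter peaks, with overlapping intervals.

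Some of the motifs lay in footprints far more often than others. Over all bases of lncRNA promoter peaks, 9.22% lay in a footprint found in both libraries. Of 51 CTCF matches in the peaks, 44 (86.3%, 74.3 to 93.2) had at least 50% of their bases there. The shares were 15 of 22 for NRF1 (68.2%, 47.3 to 83.6), 12 of 20 for the CRE, 17 of 36 for RFX (47.2%, 32.0 to 63.0) and 141 of 389 for the GC box (36.2%, 31.6 to 41.1). By contrast, 32 of 355 CCAAT boxes (9.01%, 6.46 to 12.4), 3 of 69 AP-1 matches and 0 of 24 homeobox cores lay there. In coding promoter peaks, where 11.8% of bases lay in such footprints, CTCF had 81.2%, the GC box 39.9% and the CCAAT box 12.5%, each within or near the interval of the lncRNA promoter peaks. Other motifs with few lncRNA matches lay outside it. The NFI palindrome had 3 of 9 (33.3%, 12.1 to 64.6) against 73.3% in coding promoter peaks. YY1 had 3 of 5 (60%, 23.1 to 88.2) against 19.1%, and the POU octamer 2 of 19 (10.5%, 2.94 to 31.4) against 0.518%.

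The libraries ranked lncRNA promoter peaks alike. Across the 895, log2 signal had a Pearson correlation of 0.954 between libraries and a Spearman correlation of 0.943, descriptions across peaks that share the 2 libraries. Signal was higher in replicate 2 at 795 (88.8%, 86.6 to 90.7) and in replicate 1 at 100, against 84.9% higher in replicate 2 over all shared peaks. The median fold was 1.29. It was over 2-fold higher in replicate 2 at 26 (2.91%, 1.99 to 4.22), against 2.61% of all shared peaks, a share near the background. In replicate 1 it was over 2-fold higher at 0 of 895, which allows a share of up to 0.335%, against 0.0472% of all shared peaks. Counted in signal steps, with each library's signal divided by its own step, 1.45% were over 2-fold apart. That share was not set against all shared peaks, and whether steps make the libraries more comparable is not known. The 26 peaks had medians of 0.723 in replicate 1 and 1.64 in replicate 2, and 15 of them were CpG-rich.

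The widest gaps toward replicate 2 were at weak to middling peaks. 6530409C15Rik had 0.657 in replicate 1 and 1.63 in replicate 2 (log2 1.31), Gm47405 had 0.464 and 1.08 (log2 1.23) and 4930447F24Rik had 1.14 and 2.67 (log2 1.22). Of the 12 strongest peaks, 6720427I07Rik alone passed 2-fold, with a log2 of 1.08. The widest gaps toward replicate 1 were at Gm15726 (0.678 and 0.440, log2 -0.62), Gm13293 (0.816 and 0.531, log2 -0.62) and Nr6a1os (0.4497 and 0.303, log2 -0.57). Gm15726 is uncertain, since it has 2 near-identical copies, neither on chromosome X. With 1 animal per value, no gap at a single peak can be told from technical spread.

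**Figure D5:**
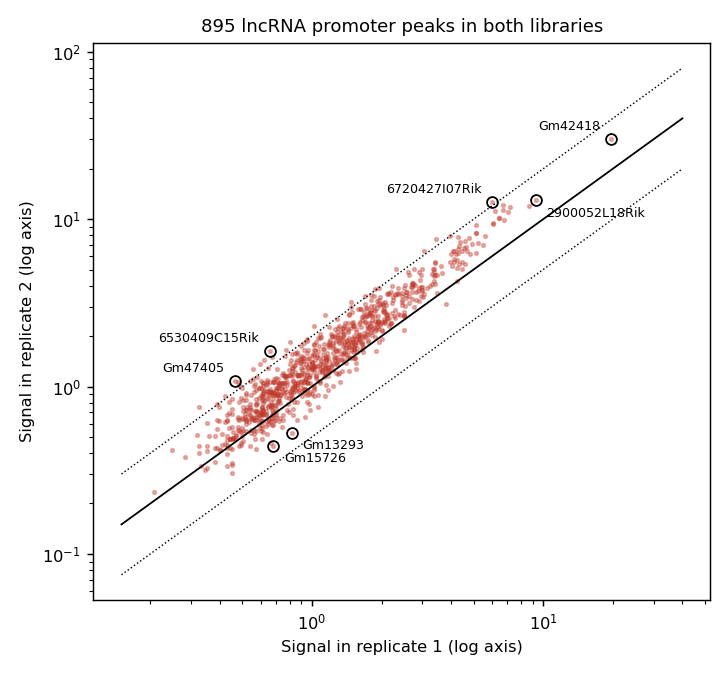
Signal of each of the 895 lncRNA promoter peaks in replicate 1 (horizontal, log axis) and replicate 2 (vertical, log axis), with equal signal as a solid line and 2-fold differences as dotted lines. Most points lie above the solid line, 26 lie above the upper dotted line and 0 lie below the lower one.

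Of the lncRNA promoter peaks of replicate 1 taken alone, 895 of 1034 were found in replicate 2 (86.6%, 84.3 to 88.5), against 89.9% of coding promoter peaks (89.4 to 90.3) and 82.9% of distal peaks (82.5 to 83.3). The 139 not found were weaker, with a median of 0.567 in replicate 1, against 1.03 for those found. Replicate 2 on its own had 1162 such peaks. Against the larger list of replicate 2, a comparison added after the data were seen, 94.4% were found.

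The share of lncRNA genes with an open promoter varied among chromosomes. Leaving out chromosome Y, it ran from 6.64% of 497 genes on chromosome 10 and 6.88% of 465 on chromosome 8 to 13.6% on chromosome X and 16.97% of 330 genes on chromosome 17. Chromosomes 13 and 17 had the most peaks relative to their shared peaks, 67 of 2241 (2.99%) and 63 of 2121 (2.97%). Chromosome 17 held 7 of the 24 peaks with a near-identical copy, Gm42418 among them, and their part in its share was not tested.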

How the data were processed

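DNase-seq libraries of 2 animals were analysed from deposited peak and footprint lists, made from each library's own alignments on mm10 and not pooled, per the file descriptions deposited with them. The labels and file descriptions name no aligner, caller, version or threshold. The deposited signal of a peak was scaled per library by the authors, on a scale not given. The deposited p-value column of the footprint lists held 0.01 throughout, so footprints were not ranked. Each library had 2 peak lists: the smaller was used, and the larger (109563 and 121943 peaks) served as an alternative.

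Start sites came from GENCODE M21 and sequence from GRCm38.p6; the CAST/EiJ copy in these F1 mice departs from that reference. Where a peak overlapped several of replicate 2, the highest was taken. Signal medians were compared in each library on the log2 scale, with mean ± SD over n = 2 libraries; shares have 95% Wilson intervals. No p-value was computed, since peaks are not replicates and 2 libraries allow no small exact p. Near-identical copies were sought with BLAST 2.17.0. Other steps used Python 3.11.15, pandas 2.3.3, numpy 2.4.6, scipy 1.17.1, pysam 0.24.0 and matplotlib 3.10.9. Membership, overlaps, fold and CpG measures were tested on simulated data and recovered.

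The members, the lists of 74 genes and 20 motifs and the tissue markers were chosen with earlier results of these data known. Named were the 12 strongest peaks, all peaks of listed genes, the 3 widest gaps toward each library, the 3 peaks with most shared footprints, the 3 genes with most peaks and the strongest peak of each type. Genes of the list without a peak, genes that RefSeq calls coding and the tissue markers were named after their values were seen. Some of the tissue markers looked at are not reported here. Alternatives were other overlaps, lists, windows, coding distances, gene types, start definitions and CpG windows, the stronger peaks, signal steps, means, autosomes and each library alone.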

Additional observations from a re-analysis of the deposited data

How the results depend on the processing

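Of 94 values recomputed under alternatives, 61 stayed within a tolerance and 33 did not. Direction could change only for the signal difference, which stayed negative in all 18 of its alternatives. Counting in signal steps could not alter that difference, since it divides all peaks of a library by the same number. The tolerance was 1.5 times for the count of peaks, 1 SD for the signal difference and the 95% Wilson interval for shares, for repeat bases that of 895 peaks as units, since bases of a peak are not independent. On that wide tolerance the share of repeat bases stayed near 7.44% in all 10 of its alternatives. The larger peak lists gave 1392 lncRNA promoter peaks, a shared footprint in 61.7%, 20.5% CpG-rich, a peak at 14.2% of eligible genes and 84.1% found in replicate 2. The stronger 50% of peaks gave 549 peaks, a log2 difference from coding promoter peaks of -0.62, a shared footprint in 93.4% and 32.8% CpG-rich. A reciprocal overlap of 50% gave a shared footprint in 81.8%, a peak at 8.77% of genes and 76.1% found; the same overlap for footprints gave 65.9%. A window of 1 kb gave -0.65, 22.0% CpG-rich and 11.7% of genes, and a window of 250 bp gave 7.52% of genes. Using the start of the gene record only gave -1.04 and 32.8% CpG-rich. Means of log2 signal gave -0.66. CpG content of the peak itself gave 31.6%, leaving out processed_transcript genes gave 8.88% of genes, and signal steps gave 1.45% over 2-fold apart. For each of these the cause was not tested beyond the construction of the alternative. Without either replicate, the difference ran from -0.82 to -0.70, the share with a footprint from 88.1% to 89.7% and the share of genes from 10.7% to 11.9%; peaks found in both libraries need both, so that share has no such value. Alternatives added after the data were seen gave -0.28 for CpG-rich and -0.22 for CpG-poor peaks, 94.4% found against the larger list, 76.8% of the peaks of replicate 2 found in replicate 1, and a peak at 10.3% of genes without chromosome Y. No paired analysis was possible because there is 1 group, so no samples of different groups share a replicate number; peak classes were compared within each library. Read depth was not given, so precision at weak peaks cannot be stated, and intervals cover counting error only.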
